A study of Arabidopsis thaliana with 7 samples.

Results

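The genes described here encode the small subunit of Rubisco and 6 plastid enzymes of the Calvin cycle in Arabidopsis thaliana. They are 10 of the 21184 genes in the table, chosen by locus identifier: the small subunit genes RBCS1A (AT1G67090), RBCS1B (AT5G38430), RBCS2B (AT5G38420) and RBCS3B (AT5G38410), and PGK1 (AT3G12780), GAPA1 (AT3G26650), GAPB (AT1G42970), plastid FBPase (AT3G54050), SBPase (AT3G55800) and PRK (AT1G32060). Polyadenylated RNA was sequenced from whole seedlings of tt4-11, which the labels call a chalcone synthase null line (3 libraries, replicates 2 to 4), and of the wild type Col-0 (4 libraries, replicates 1 to 4). Both groups were 5 days past germination and grew at 22 °C in continuous light (labelled 24 h) of about 100 µE, on MS medium with 2% sucrose, a setting that the design text links to flavonoid production. All tt4-11 libraries carry 1 mutant line, so an effect of the lost enzyme and other properties of that line cannot be told apart. The labels mention 4 prepared tt4-11 libraries, and replicate 1 was not analysed here.

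Rubisco fixes CO2 onto ribulose bisphosphate in the chloroplast stroma. Its large subunit is encoded in the chloroplast genome and its small subunit by a nuclear gene family whose proteins are imported into the plastid. The Calvin cycle then reduces the product with ATP and NADPH from the light reactions and regenerates the acceptor. Phosphoglycerate kinase and the plastid glyceraldehyde-3-phosphate dehydrogenase carry out the reduction, the bisphosphatases FBPase and SBPase drive the regeneration, and phosphoribulokinase makes the acceptor. In leaves these are among the most abundant nuclear transcripts.

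Values are scaled reads, that is, reads divided by a size factor of the library. Changes are differences of log2(scaled reads + 1), tt4-11 minus Col-0, with a standard error (SE). The added 1 shrinks log2 changes of genes with few reads, while a single low library can still move them. Calls were made in limma where the p adjusted over 13301 tested genes (Benjamini-Hochberg) was under 0.05. The reads behind the table numbered 2150718 to 2175787 in tt4-11 libraries and 2021368 to 2205449 in Col-0 libraries, and counting intervals at such depth cover counting error only. TT4, the chalcone synthase gene, had 58.0, 96.7 and 54.9 scaled reads in tt4-11 libraries, against 3003, 2571, 3148 and 2464 in Col-0 libraries. The labels name no separate cultures, so each p-value covers nothing but the spread among the libraries at hand, which may be technical. In whole seedlings, fewer green cells and less RNA per cell cannot be told apart.

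All 10 members passed the filter on low values. In tt4-11 GAPB was called higher, RBCS2B was called lower, and the other 8 did not pass. Over all tested genes 7.07% were called higher and 6.55% lower, so 1 of 10 in each direction is near the background. The median change of the members was 0.00, and that of all tested genes -0.01 on the log2 scale. The 10 members summed to 26665 ± 1536 scaled reads in tt4-11 (SD, n = 3) and to 26647 ± 1862 in Col-0 (SD, n = 4), and these sums overlapped. Within that sum the summed reads of the small subunit genes were lower in every tt4-11 library than in any Col-0 library, and those of the 2 plastid dehydrogenase genes higher, though only RBCS2B and GAPB were called.

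**Figure D1:**
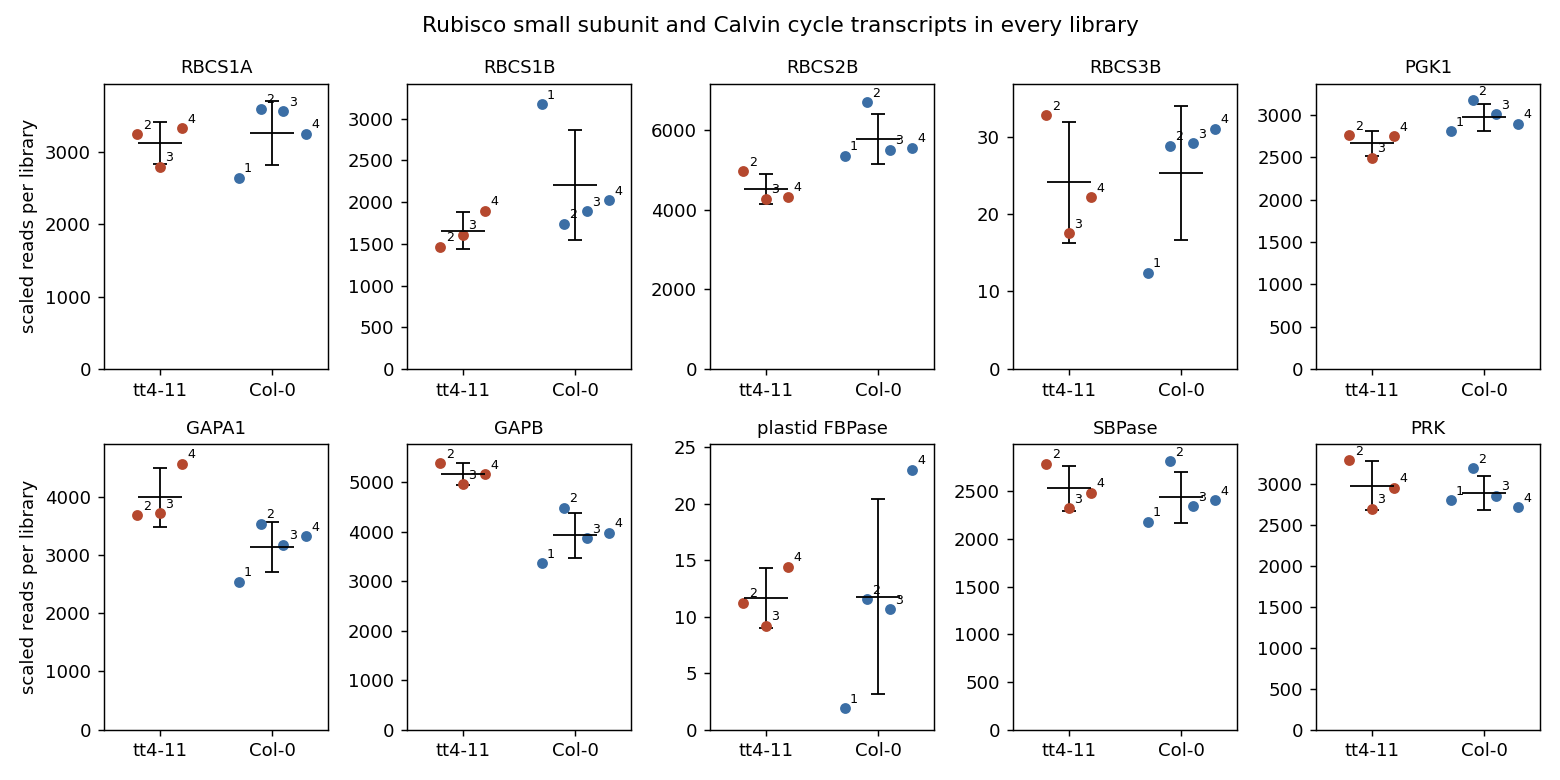
Scaled reads (y axis, from 0, its range set per gene) of the 10 members in each library, tt4-11 in red and Col-0 in blue. Numbers are replicate numbers, and bars give mean ± SD (n = 3 and 4). The tt4-11 points of GAPA1 and GAPB lie above all Col-0 points, those of RBCS2B and PGK1 below all, and the other members overlap.

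The 4 small subunit genes differ little in sequence, which bears on how their reads can be assigned. In the RefSeq annotation of TAIR10.1, RBCS1A lies at chr1:25048158-25049667, and the others form a cluster on the minus strand of chromosome 5: RBCS1B at chr5:15383167-15385320, RBCS2B at chr5:15380907-15382071 and RBCS3B at chr5:15376988-15378642. Each has 3 exons in the tabled model. The coding sequences of RBCS1B and RBCS2B are 97.3% identical, and RBCS1A is 90.1% identical to RBCS2B. The stretch of 100 coding bases shown here ends 30 bases before the end of the RBCS2B coding sequence. Capitals mark bases that differ from RBCS2B.
RBCS1A: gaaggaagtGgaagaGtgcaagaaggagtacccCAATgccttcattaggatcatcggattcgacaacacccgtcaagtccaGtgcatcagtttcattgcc
RBCS1B: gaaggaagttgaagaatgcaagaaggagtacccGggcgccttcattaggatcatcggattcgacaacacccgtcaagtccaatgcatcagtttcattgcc
RBCS2B: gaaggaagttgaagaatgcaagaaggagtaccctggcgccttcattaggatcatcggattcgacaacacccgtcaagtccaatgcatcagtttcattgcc
RBCS3B: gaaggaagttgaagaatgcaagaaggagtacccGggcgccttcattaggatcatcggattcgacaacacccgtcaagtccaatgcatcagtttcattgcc
RBCS1A differs from RBCS2B at 7 of these bases, and RBCS1B and RBCS3B differ at 1 each and are alike. Over the whole transcripts, no window of 100 bases, the read length, is shared by RBCS1A or RBCS2B with another small subunit gene. For RBCS1B 134 of 1795 windows (7.47%) are shared, and for RBCS3B 131 of 1085 (12.1%). Reads from shared windows could be split or dropped, so RBCS1B and RBCS3B are less certain as single genes.

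RBCS2B, the small subunit gene with the most reads in the table, had 4963, 4280.0 and 4329 scaled reads in tt4-11 libraries, against 5358, 6698, 5502 and 5555 in Col-0 libraries. The highest tt4-11 value was under the lowest Col-0 value. Its mean was 4524 ± 381 in tt4-11 (SD, n = 3) and 5778 ± 619 in Col-0 (SD, n = 4), a log2 change of -0.35 (SE 0.11, limma adjusted p = 0.0383). As a percentage this is -21.6%, with a 95% interval of -33.0% to -8.25%. The call was lost without tt4-11 replicate 3 (adjusted p = 0.141) or 4 (0.136), or without Col-0 replicate 2 (0.103), 3 (0.0614) or 4 (0.0524), while the change stayed between -0.42 and -0.28. It was also lost with no filter (adjusted p = 0.0657) and when a trend of change with transcript length was removed (change -0.22, adjusted p = 0.182).

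RBCS1A had 3245, 2797 and 3327 scaled reads in tt4-11 libraries, against 2645, 3597, 3562 and 3255 in Col-0 libraries. The groups overlapped, with a change of -0.06 (95% interval -0.30 to 0.19, adjusted p = 0.789). RBCS1B had 1463, 1610.2 and 1900.0 scaled reads in tt4-11 libraries, against 3172, 1742, 1889 and 2021 in Col-0 libraries. Col-0 replicate 1 stood far above the rest of its group, and the other Col-0 libraries overlapped tt4-11. The change of RBCS1B was -0.38 (SE 0.16, adjusted p = 0.131), and -0.19 (adjusted p = 0.252) without Col-0 replicate 1. RBCS3B had the fewest tabled reads of the family, with 32.8, 17.5 and 22.1 scaled reads in tt4-11 libraries and 12.4, 28.8, 29.1 and 31 in Col-0 libraries. These groups overlapped, and the change of -0.03 had a wide interval, -0.70 to 0.63 (adjusted p = 0.956).

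The difference in response between the small subunit genes was itself tested. The log2 ratio of RBCS1A to RBCS2B lay between -0.61 and -0.38 in tt4-11 and between -1.02 and -0.63 in Col-0. The difference was 0.29 (exact two-sided permutation p = 0.0571, adjusted p = 0.4 over 7 pairs of members), where 0.0571 is the smallest p that the 35 splits allow. The other 5 pairs of small subunit genes had exact permutation p-values of 0.514 to 1 and an adjusted p of 1. With 3 against 4 libraries no pair could have passed this test, so it cannot say whether RBCS2B differs in response from its relatives.

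Because reads of the family could be split, its sum was taken as well. The 4 genes summed to 9704, 8705 and 9578 scaled reads in tt4-11 libraries, against 11187, 12066, 10983 and 10862 in Col-0 libraries. The groups did not overlap. The mean sum was 9329 ± 544 in tt4-11 (SD, n = 3) and 11274 ± 544 in Col-0 (SD, n = 4), a log2 difference of -0.27 that was not tested, and which stayed between -0.30 and -0.23 when any library was left out. As a share of all scaled reads in the table this is 0.460% ± 0.0239 in tt4-11 and 0.550% ± 0.0319 in Col-0. RBCS2B made up 45.2% to 51.1% of these tabled reads in tt4-11 and 47.9% to 55.5% in Col-0, RBCS1A 32.1% to 34.7% in tt4-11 and 23.6% to 32.4% in Col-0. RBCS1B took 28.4% in Col-0 replicate 1, against 14.4% to 18.6% in the other Col-0 libraries and 15.1% to 19.8% in tt4-11.

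The 5 genes named next lie outside the members and had the profile over the 7 libraries most like that of the summed small subunits, out of 4590 genes with a mean of at least 100 scaled reads. They were emb2394 (AT1G05190), CT-BMY (AT4G17090), LTA2 (AT3G25860), LCR (AT1G27340) and ALDH10A9 (AT3G48170). Their root-mean-square difference from the summed profile, each centred on its mean log2, was 0.0310, 0.0366, 0.0460, 0.0481 and 0.0507, against a median of 0.233 for all genes compared. They were picked for the smallest differences, so lying under the median follows from the choice. None of the 5 was called (limma adjusted p of 0.0526 to 0.117).

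In the reduction phase, PGK1, plastid phosphoglycerate kinase, had 2758, 2495 and 2747 scaled reads in tt4-11 libraries, against 2806, 3176, 3009 and 2898 in Col-0 libraries. All tt4-11 values lay below all Col-0 values, but the change of -0.16 (SE 0.09, 95% interval -0.36 to 0.04) was not called (adjusted p = 0.288). Groups that do not overlap were found in 26.6% of tested genes, 13.7% with tt4-11 above and 12.9% below, and in 4 members: GAPA1 and GAPB above, RBCS2B and PGK1 below.

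GAPA1 and GAPB encode the A and B subunits of the NADPH-using plastid dehydrogenase, and the B subunit carries a tail that regulates the enzyme. GAPB (chr1:16127353-16129895, plus strand) had 5384, 4952 and 5157 scaled reads in tt4-11 libraries, against 3365, 4483, 3867 and 3979 in Col-0 libraries. The groups did not overlap. The means were 5164 ± 216 in tt4-11 (SD, n = 3) and 3924 ± 459 in Col-0 (SD, n = 4), and GAPB rose by 0.40 (SE 0.11, adjusted p = 0.0200). That is 32.2%, with a 95% interval of 13.1% to 54.6%. The call was lost without tt4-11 replicate 2 (adjusted p = 0.0801) or 4 (0.0640).

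GAPA1 (chr3:9794862-9797045, plus strand) had 3681, 3719 and 4567 scaled reads in tt4-11 libraries, against 2539, 3535, 3176 and 3319 in Col-0 libraries. Here too no tt4-11 value fell below a Col-0 value, although tt4-11 replicate 2 lay only just above Col-0 replicate 2. The change was 0.35 (SE 0.12, 95% interval 0.09 to 0.60) and did not pass (adjusted p = 0.0674). It passed by DESeq2 on recovered reads (0.35, adjusted p = 0.0462) and without Col-0 replicate 2 (0.41, adjusted p = 0.0497). In the other settings it did not pass, as by edgeR on recovered reads (0.35, adjusted p = 0.0665). The change was smaller without tt4-11 replicate 4 (0.25, adjusted p = 0.280) or without Col-0 replicate 1 (0.25, adjusted p = 0.119). The ratio of GAPA1 to GAPB differed by -0.06 on the log2 scale (exact two-sided permutation p = 0.629). In the authors' deposited table GAPB had a log2 change of 0.38 (adjusted p = 0.00427), GAPA1 of 0.33 (0.0484) and RBCS2B of -0.34 (0.0140), and no other member passed 0.05.

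Set against the small subunits, GAPA1 and GAPB together had 0.934, 0.996 and 1.02 reads per small subunit read in tt4-11 libraries, against 0.528, 0.665, 0.641 and 0.672 in Col-0 libraries. This ratio, chosen after the values were seen and so not tested, separated the groups, with a mean of 0.982 ± 0.0424 in tt4-11 (SD, n = 3) and 0.626 ± 0.0670 in Col-0 (SD, n = 4). The lowest Col-0 value was that of replicate 1. The ratio is of tabled reads, not set per length, and RBCS1A, RBCS1B and RBCS3B have several annotated models. It is no ratio of absolute levels. Neither the ratio nor the small subunit sum was corrected for the trend of change with transcript length (Spearman rho 0.283). GAPA1 has 1752 bases and GAPB 1854, against 935 for RBCS2B. The part of length in the difference of this ratio between the groups was not tested.

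**Figure D2:**
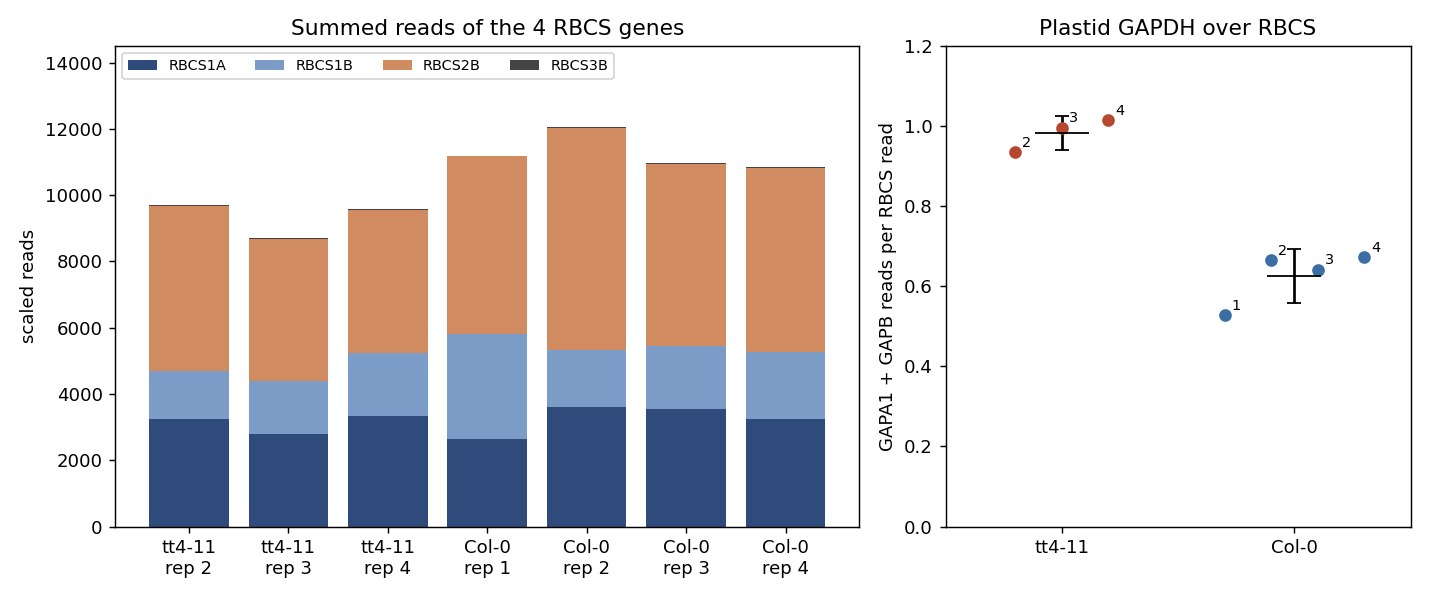
Left, summed scaled reads of the 4 RBCS genes per library, stacked by gene, and right, GAPA1 plus GAPB reads per RBCS read in each library (numbers are replicates, bars mean ± SD, n = 3 and 4). The tt4-11 stacks are 8705 to 9704 high and the Col-0 stacks 10862 to 12066, and the tt4-11 ratios are 0.934 to 1.02 and the Col-0 ratios 0.528 to 0.672.

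In the regeneration phase no member was called. SBPase, sedoheptulose bisphosphatase, had 2787, 2319 and 2482 scaled reads in tt4-11 libraries, against 2182, 2815, 2342 and 2404 in Col-0 libraries. The groups overlapped, and the change was 0.06 (95% interval -0.17 to 0.28, adjusted p = 0.771). PRK, phosphoribulokinase, had 3282, 2694 and 2951 scaled reads in tt4-11 libraries, against 2794, 3186, 2853 and 2714 in Col-0 libraries. These overlapped as well, with a change of 0.04 (95% interval -0.17 to 0.26, adjusted p = 0.824). Plastid FBPase, fructose bisphosphatase, had 11.2, 9.21 and 14.4 scaled reads in tt4-11 libraries, against 1.91, 11.5, 10.7 and 23 in Col-0 libraries. It rested on 2 to 23 reads a library, and its change of 0.31 had an interval of -0.81 to 1.43 (adjusted p = 0.744). Its mean scaled reads were 11.6 in tt4-11 and 11.8 in Col-0, and the change was -0.29 without Col-0 replicate 1.

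Levels can be set beside each other only per length, and only for the 6 members with 1 annotated model, since the table holds 1 model of each gene. In tt4-11 RBCS2B had 4838 scaled reads per kilobase, GAPB 2786, GAPA1 2277, PRK 1574, PGK1 1466 and SBPase 1448. In Col-0 RBCS2B had 6180.1, GAPB 2116, GAPA1 1794, PGK1 1634, PRK 1527 and SBPase 1394. RBCS2B lay above GAPB in every library, while PRK, PGK1 and SBPase overlapped in both groups. GAPA1 overlapped neither GAPB above it nor PRK below it in tt4-11, but it overlapped GAPB, PGK1, PRK and SBPase in Col-0. RBCS1A, RBCS1B, RBCS3B and plastid FBPase have several annotated models, and their tabled reads are not absolute levels.

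Transcript length moved with the changes. Across 13292 genes the log2 change was larger for longer transcripts (Spearman rho 0.283, a description over genes of the same libraries). RBCS2B was the shortest member with 935 bases, and GAPB had 1854. With the length trend removed, GAPB changed by 0.40 (adjusted p = 0.0225), RBCS2B by -0.22 and RBCS1A by 0.02. The part of length in these results was not tested beyond that.

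**Figure D3:**
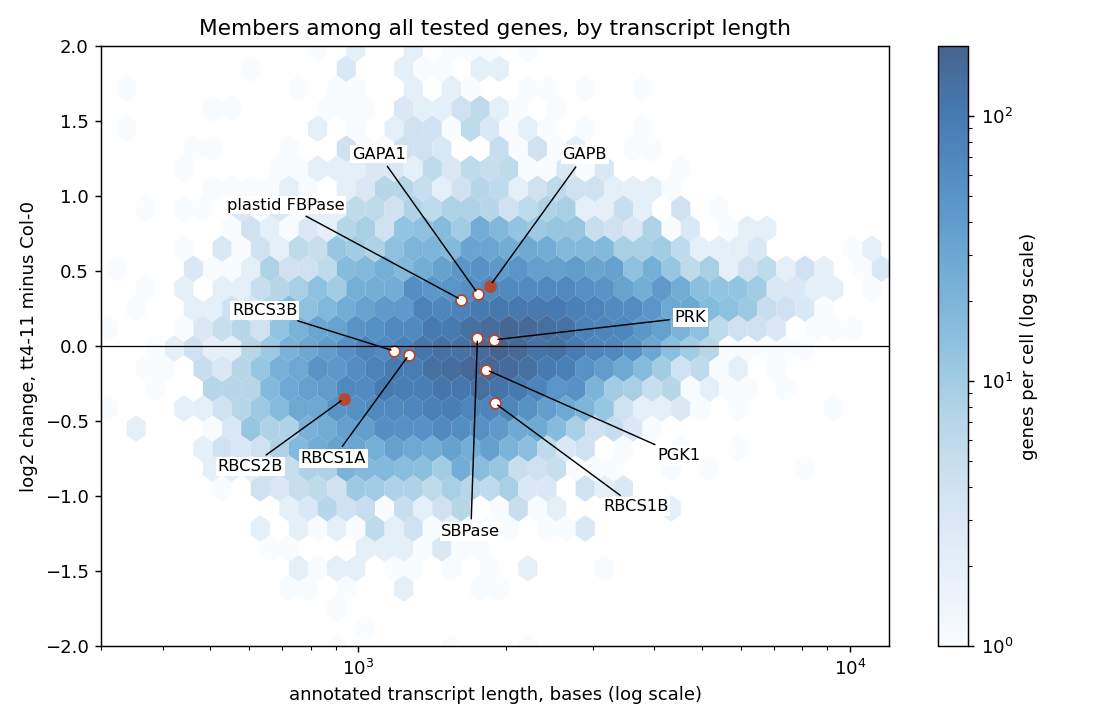
The log2 change (y axis, drawn from -2 to 2) of all tested genes against annotated transcript length in bases (log x axis), shaded by the number of genes per cell (log colour scale), with the 10 members as circles, filled where called. RBCS2B at 935 bases has a change of -0.35, and GAPB at 1854 bases one of 0.40.

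The promoters of the small subunit genes are known for light-responsive G-box and I-box motifs. For each member the 250 bases before the start of the annotated model with the shortest 5' UTR were searched on both strands for CACGTG (G-box) and GATAAG (I-box). In RBCS1A, RBCS1B, RBCS3B and plastid FBPase this window overlaps another annotated transcript of the same gene, nearly in full for RBCS1A and RBCS3B, so it may hold transcribed bases. RBCS2B (chr5:15382072-15382321, minus strand), lower in tt4-11, and GAPB (chr1:16127103-16127352, plus strand), higher in tt4-11, are shown from RefSeq TAIR10.1 as the called members. Capitals mark the motifs, which do not overlap.
RBCS2B promoter: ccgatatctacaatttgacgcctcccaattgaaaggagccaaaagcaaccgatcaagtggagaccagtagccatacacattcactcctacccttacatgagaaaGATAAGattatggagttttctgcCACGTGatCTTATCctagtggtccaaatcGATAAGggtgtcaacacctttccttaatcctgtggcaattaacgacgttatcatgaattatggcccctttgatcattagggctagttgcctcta
GAPB promoter: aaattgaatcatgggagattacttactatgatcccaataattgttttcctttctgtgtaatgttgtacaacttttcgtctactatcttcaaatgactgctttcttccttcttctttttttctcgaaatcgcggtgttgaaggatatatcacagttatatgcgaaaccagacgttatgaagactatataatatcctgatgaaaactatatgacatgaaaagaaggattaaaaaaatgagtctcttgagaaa
RBCS2B holds 1 G-box and 3 I-boxes, and GAPB neither. Of the 6 members whose window lies outside all transcripts of the gene, 2 hold a G-box (RBCS2B and PRK) and 1 an I-box (RBCS2B), against 6.29% and 12.4% of 20008 such windows over all genes. RBCS2B holds both, as do 0.970% of those windows. In the 4 overlapping windows, RBCS1A, RBCS3B and plastid FBPase hold both motifs and RBCS1B an I-box only. Counting all windows, 5 of 10 members hold a G-box, 5 an I-box and 4 both, against 6.79%, 12.6% and 0.995% of 27443 windows. RBCS2B and RBCS3B, of the same cluster, are not independent cases, as their motifs have the same spacing. In RBCS2B the G-box starts 123 bases upstream and the I-boxes 146, 115 and 94. In RBCS3B these starts are at 107 and at 130, 99 and 78. The match is of letters only, and whether the motifs bear on the changes was not tested.

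Among 14 other genes of the cycle, 11 were tested, of which 0 were called higher, 3 lower and 8 did not pass (median change -0.28). The background for this list and those below is 7.07% called higher and 6.55% called lower over all tested genes. CP12 proteins tie the plastid dehydrogenase and PRK into an inactive complex, and both CP12-2 and CP12-1 fell. CP12-2 had 246, 198 and 259 scaled reads in tt4-11 libraries, against 493, 563, 325 and 396 in Col-0 libraries. It did not overlap and fell by 0.90 (SE 0.16, adjusted p = 0.00188). CP12-1 fell by 0.60 (SE 0.13, adjusted p = 0.00582), to 575 ± 77.3 in tt4-11 against 875 ± 139 in Col-0. RPI3, a ribose-5-phosphate isomerase, fell by 0.47 (SE 0.11, adjusted p = 0.0101), but was not called without tt4-11 replicate 3 (0.0568) or with the length trend removed (0.0531). CP12-2 and CP12-1 kept their calls when each library was left out. Their transcripts are short, at 637 and 913 bases. With the length trend removed they changed less, by -0.75 (adjusted p = 0.00739) and -0.47 (adjusted p = 0.0265), and stayed called.

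Of 9 genes for Rubisco assembly and activation, 8 were tested, with 1 higher, 2 lower and 5 not passed (median -0.03). The chaperone gene RBCX1 fell by 1.54 (SE 0.39, adjusted p = 0.0172), although Col-0 replicate 1, at 16.2, lay inside the tt4-11 range of 13.8 to 18.7. That call was lost without tt4-11 replicate 3 (0.0713) or Col-0 replicate 3 (0.0568). RBCX2 rose by 0.43 (adjusted p = 0.0385), but was not called without tt4-11 replicate 2, 3 or 4 or Col-0 replicate 1 or 2 (adjusted p of 0.0619 to 0.149), by DESeq2 (0.0703) or with no filter (0.0526). CPN60B2, a chaperonin subunit, fell by 0.35 (adjusted p = 0.0488), but was not called when any 1 library other than Col-0 replicate 4 was left out (0.0729 to 0.172) or with no filter (0.0701).

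Of 7 genes of carbonic anhydrases and the plastid thioredoxin system, which switches cycle enzymes on in light, 6 were tested, with 0 higher, 2 lower and 4 not passed (median -0.14). TRXF1, an f-type thioredoxin, the type that activates FBPase and SBPase, fell by 0.64 (SE 0.12, adjusted p = 0.00313). It had 306 ± 44.5 scaled reads in tt4-11 against 475 ± 53.3 in Col-0. TRXM1, an m-type thioredoxin, also fell by 0.64 (SE 0.12, adjusted p = 0.00369). TRXF1 and TRXM1 kept their calls when each library was left out. Their transcripts are short, at 943 and 957 bases. With the length trend removed both changed less, by -0.51 each, and stayed called (adjusted p = 0.0107 and 0.0188). TRXF2, the other f-type gene listed, changed by -0.20 with overlapping groups and was not called (adjusted p = 0.482).

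Photorespiration recycles the product of Rubisco's oxygenase reaction. Of its 12 listed genes, 11 were in the table and 9 tested, with 3 higher, 0 lower and 6 not passed (median 0.43). That median rests partly on genes with few reads. GOX2 had 1 to 19 reads a library, AGT1 10 to 22, GLDP1 7 to 38 and HPR1 5 to 53. SHM1, the mitochondrial serine hydroxymethyltransferase, had 4531, 4141 and 4602 scaled reads in tt4-11 libraries, against 2035, 3366, 3357 and 3441 in Col-0 libraries. The groups did not overlap, and SHM1 rose by 0.57 (SE 0.15, adjusted p = 0.0209), but was not called without tt4-11 replicate 2 (0.0760) or 4 (0.0767). GLDP2, a glycine decarboxylase subunit, rose by 0.43 (adjusted p = 0.0150), but was not called without tt4-11 replicate 4 (0.0761) or with the length trend removed (0.168), its transcript being 3967 bases long. GGAT1, a peroxisomal aminotransferase, rose by 0.51 (adjusted p = 0.0241), but was not called without tt4-11 replicate 2, 3 or 4 or Col-0 replicate 3 (0.0517 to 0.0891).

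Of 9 genes for cytosolic counterparts of the cycle enzymes, 7 were tested, with 1 higher, 2 lower and 4 not passed (median -0.20). CTIMC, cytosolic triose phosphate isomerase, fell by 0.48 (SE 0.10, adjusted p = 0.00498), and the cytosolic aldolase gene FBA8 fell by 0.42 (SE 0.09, adjusted p = 0.00825, and 0.0503 without tt4-11 replicate 4). ALDH11A3, which encodes a non-phosphorylating dehydrogenase, rose by 0.68 (SE 0.16, adjusted p = 0.0112), but was not called without tt4-11 replicate 2 (0.0522) or 4 (0.0572). Of 7 regulators of photosynthesis genes, 6 were in the table and tested, with 1 higher, 2 lower and 3 not passed (median -0.10). GLK2, an activator of photosynthesis genes, rose by 0.46 (adjusted p = 0.0231), while the GATA factors GNC and CGA1 fell by 0.56 (0.0253) and 0.58 (0.0361). None of these 3 calls held without each library: GLK2 was lost without tt4-11 replicate 2, 3 or 4 or Col-0 replicate 2 (0.0580 to 0.109), GNC without tt4-11 replicate 2 or 3 or Col-0 replicate 2 or 3 (0.0575 to 0.117), and CGA1 without tt4-11 replicate 3 or 4 or Col-0 replicate 3 or 4 (0.0779 to 0.149). CGA1 was not called by DESeq2 (0.0797) or with the length trend removed (0.0509) either. Of the called genes named so far outside the members, RBCX2, GGAT1 and GLK2 have 2 annotated models each and ALDH11A3 has 4. Their tabled reads are thus less certain as levels of the whole gene.

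**Figure D4:**
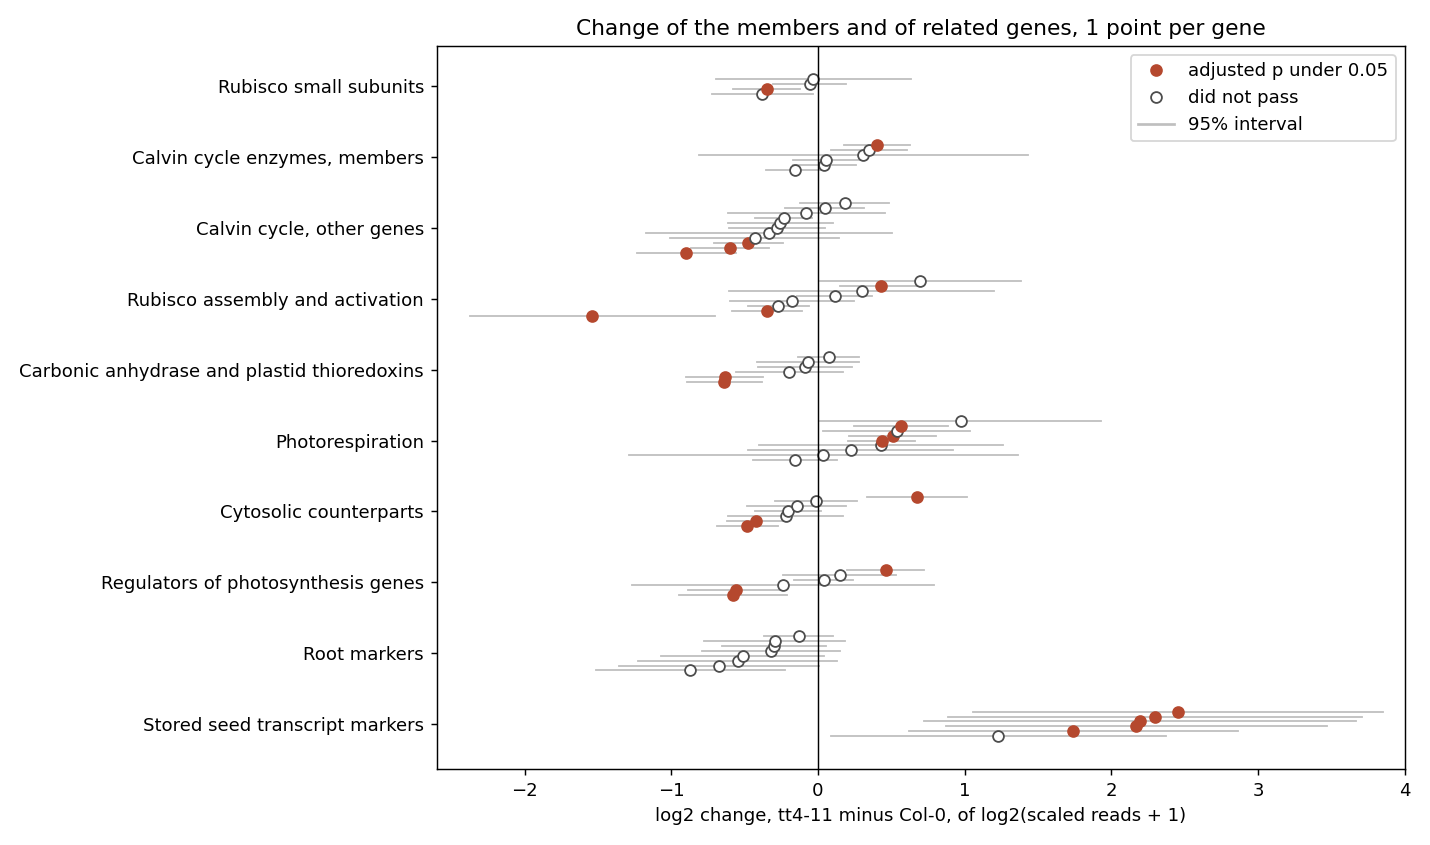
The log2 change (x axis) of each tested gene, by list, with its 95% interval, filled where the adjusted p is under 0.05. The 4 small subunit genes lie below 0, GAPB at 0.40 is the called plastid enzyme among the members, and the 3 called photorespiration genes lie above 0.

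Whole seedlings hold roots and what remains of the seed, so markers of both were counted beside these changes. All 8 root markers were tested and had a negative change, 0 were called, and none was at 0 in any library (median -0.42). Their sum ran from 9794 to 12820.3 scaled reads in tt4-11 and from 11991.5 to 13188 in Col-0. PYK10 made up nearly all of that sum, with 9594 to 12599 in tt4-11 and 11658 to 12947 in Col-0. The other 7 summed to 200.3 to 222 scaled reads in tt4-11 and to 241 to 333 in Col-0, without overlap. EXPA7 (-0.87, adjusted p = 0.0691) and EXPA18 (-0.68, adjusted p = 0.174) had the lowest p of this list. Of 8 markers of stored seed transcripts, 6 were tested and 5 were called higher (median 2.18), with a sum of 226 to 1318 scaled reads in tt4-11 and 51 to 474 in Col-0, and 0 to 2 markers at 0 in a library. Of the named seed markers, OLEO2 changed by 2.46, CRB by 2.30, SESA3 by 2.17 and OLEO1 by 1.74, and without tt4-11 replicate 2 or 3 these were not called (adjusted p of 0.109 to 0.211). Nor was SESA3 called without Col-0 replicate 4 (0.0514), CRB without Col-0 replicate 1 (0.0551) or 4 (0.0704), or OLEO1 without Col-0 replicate 1, 2 or 4 (0.0533 to 0.0825). By DESeq2 none of these 4 was called (0.116 to 0.204). The part of either marker list in the member results was not tested.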

How the data were processed

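Reads per transcript model were deposited by the authors as a signal, a count divided by the library's size factor, with 1 unscaled Col-0 column holding counts. Per the submitters' processing notes TopHat2, HISAT2, HTSeq and DESeq2 were used, while the sources used here give neither versions nor build. Dividing by the step of each column gave whole reads in 100% of values within 0.01. The deposited log2 fold changes and p-value columns and their score were used only where named.

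Models were summed per locus, 1 was added and log2 taken. Because most columns hold scaled values, limma-trend (limma 3.58.1, R 4.3.3) was the main test. Genes were kept by filterByExpr at a minimum of 10, and 3 tt4-11 were compared with 4 Col-0 libraries, two-sided, at an adjusted p of 0.05. Ratios of members used exact permutation tests (scipy 1.17.1). Alternatives were edgeR 4.0.16, DESeq2 1.42.0, TMM factors, other filters, a pseudocount of 0.1, an adjusted p of 0.01, each library left out, a replicate block, models not summed and removal of the length trend. Chi-square per degree of freedom was 2.05 to 5.44 within groups and 5.67 to 13.6 between them, so no library was a duplicate. Pairs with Col-0 replicate 1 were the highest of each kind, at 4.33 to 5.44 within Col-0 and 11.1 to 13.6 with tt4-11. Of the 21184 genes, 21154 were found in RefSeq TAIR10.1, which supplied positions and sequences and may not be the authors' build. Coding sequences were aligned with Biopython 1.88. The fit was tested on simulated data.

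The members and lists were chosen with earlier results of these data known. Some genes of 1 list are not reported here, and its counts leave them out. Named are all members, TT4, up to 4 called genes of each list by lowest p (2 where none was called), and the 5 genes most like the summed RBCS profile. TRXF2, PYK10 and some photorespiration genes with few reads are named besides.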

Additional observations from a re-analysis of the deposited data

Results flagged for a closer look

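In Col-0, RBCS2B of replicate 2 stood at 6698 scaled reads, far above the other 3 Col-0 libraries, with a gap of 0.853 of the group's range, over the 0.829 that Dixon's test sets for 4 samples. RBCS3B of Col-0 replicate 1 stood at 12.4 scaled reads, far below its group, with a gap of 0.883. Of 16 values checked in this way, chance alone flags about 5%.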

How the results depend on the processing

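With DESeq2 2 members were called higher, and at an adjusted p of 0.01 there were 0. Members called lower numbered 0 with no filter, at 0.01 and with the length trend removed. Leaving out each library gave 0 to 2 higher and 0 to 1 lower. Over all genes 394 were called higher and 314 lower at 0.01, and 426 to 925 and 437 to 857 with a library left out. Changes near 0 turned: RBCS1A was 0.016 and RBCS3B 0.055 with the length trend removed, and plastid FBPase -0.0056 by edgeR and -0.014 by DESeq2. With a library left out, RBCS1A ran from -0.16 to 0.020, RBCS3B from -0.33 to 0.17, plastid FBPase from -0.29 to 0.73, SBPase from -0.015 to 0.13 and PRK from -0.031 to 0.11. Log2 ratio differences ran from -0.15 to 0.18 (RBCS1A to RBCS3B), -0.20 to 0.19 (RBCS1B to RBCS2B), -0.53 to 0.14 (RBCS1B to RBCS3B) and -0.16 to 0.029 (GAPA1 to GAPB). The cause was not tested, beyond fewer libraries where one was left out.

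Same-numbered libraries correlated by 0.0527, 0.0636 and 0.0414, each best with its own number, a hint from the data, but too weakly to pair them. With a replicate block over replicates 2 to 4, which leaves out Col-0 replicate 1, 904 genes were called higher and 784 lower. RBCS2B was at -0.38 (adjusted p = 0.00884), GAPB at 0.33 (0.0209) and plastid FBPase at -0.29, and RBCX2 (0.0729) and CPN60B2 (0.0845) were not called. Without Col-0 replicate 1 and with no block, the changes of RBCS2B, GAPB and plastid FBPase were the same. RBCX2 (0.0619) and CPN60B2 (0.0792) were not called there either. Plastid FBPase and RBCS3B rest on few reads, and their tabled models have 273 and 200 bases found in no other model. Whether depth or the tabled model sets those counts was not tested.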

Other observations

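Col-0 replicate 1 had the lowest Col-0 value of 8 of the 10 members, and the highest of RBCS1B. Col-0 replicate 2 had the highest of 7 members. In tt4-11, replicate 3 had the lowest value of 8 members and replicate 2 the highest of 6.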
